A study of Mus musculus with 60 samples.

Results

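The transcripts described here are those of 7 genes, Pmch, Hcrt, Avp, Oxt, Gal, Trh and Pomc, out of 47597 gene entries measured by RNA-Seq in 60 libraries of mouse brain tissue. The genes were chosen by name, as precursors of neuropeptides best known from the hypothalamus, with earlier results of these data in view. Pmch was selected on its level in the libraries labelled striatum, Δ12/+, and the other members were added as genes of the same brain region. All 7 had 1 entry each. Each was above 0 in at least 36 libraries, and no library was labelled as hypothalamus.

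The mice were of the c57BL-6N strain and 3 months old, and were sampled in the cortex and the striatum. One line carried the Δ12 allele, a deletion within exon 12 of Htt made by CRISPR in embryonic stem cells, and gave animals labelled +/+, Δ12/+ and Δ12/Δ12. The other line carried the KO allele, a larger imprecise deletion at the same place that removes the splice donor, and gave animals labelled +/+ and KO/+. The KO line descends from 1 founder. The 2 tissues and 5 genotypes form 10 groups of 6 libraries, of which 3 are labelled male and 3 female in every group. The comparisons implied by the design ask how each Htt allele, present on 1 or both chromosomes, relates to expression in each tissue.

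Neuropeptides are cut from larger precursor proteins in the secretory pathway, stored in dense-core vesicles and released to act on G protein-coupled receptors. Pmch encodes the precursor of melanin-concentrating hormone and Hcrt that of the orexins, both made by neurons of the lateral hypothalamus that project widely and are known for their part in feeding, sleep and arousal. Avp (vasopressin) and Oxt (oxytocin) are made by magnocellular neurons of the paraventricular and supraoptic nuclei and, for Avp, also by the suprachiasmatic nucleus. Gal (galanin), Trh (thyrotropin-releasing hormone) and Pomc (the precursor of melanocortins and beta-endorphin) are made in the hypothalamus but are also known from other brain regions.

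The files place the genes, on GRCm38, at chr10:88091072-88092375 for Pmch (plus strand), chr11:100761069-100762931 for Hcrt (minus), chr2:130580620-130582554 for Avp (minus), chr2:130576173-130577054 for Oxt (plus), chr19:3409919-3414472 for Gal (minus), chr6:92242061-92244650 for Trh (minus) and chr12:3954951-3960618 for Pomc (plus). Avp and Oxt are neighbours that face each other, with 3565 bases between their ends. The values are whole-gene sums over exons, so introns and single exons were not seen separately.

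The last 60 bases before the start of 4 members are shown, from the RefSeq promoter table on GRCm38.p6. A link between these bases and the levels of the members was not tested. The windows are read 5′ to 3′ on the strand of the gene, and capitals mark TATAAA or CATAAA.
Pmch, chr10:88091012-88091071, plus strand: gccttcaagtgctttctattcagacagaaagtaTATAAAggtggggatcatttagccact
Hcrt, chr11:100762932-100762991, minus strand: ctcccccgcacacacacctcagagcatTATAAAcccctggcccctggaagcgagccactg
Avp, chr2:130582589-130582648, minus strand: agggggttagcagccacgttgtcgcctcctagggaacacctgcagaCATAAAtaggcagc
Oxt, chr2:130576109-130576168, plus strand: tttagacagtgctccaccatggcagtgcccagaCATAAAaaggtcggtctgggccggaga
The Pmch and Hcrt windows hold TATAAA, starting 27 and 33 bases before the RefSeq start, and the Avp and Oxt windows hold CATAAA, starting 14 and 27 bases before it. The Pomc window also holds TATAAA, and the letters of neither motif are in the windows of Gal and Trh. Over all 32851 promoters of the table, 3.92% hold TATAAA and 2.56% hold CATAAA in the same 60 bases on either strand. The motifs cannot overlap each other on the same strand, and a match is a description of letters, not of a bound site.

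Before the results, the labels have to be set against the data. Slc17a7, the vesicular glutamate transporter of cortical excitatory neurons, stood above 100 FPKM in 30 libraries and below it in 30, with the nearest values at 121 FPKM (labelled striatum, Δ12/+, male 3) and 64.8 FPKM (labelled cortex, KO/+, male 3). The first 30 are called cortex-like here and the others striatum-like. Of each 30, 15 were labelled cortex and 15 striatum, so the labelled tissue went with the expressed one in 30 of 60 libraries. The cortex-like libraries are all those labelled +/+ of the Δ12 line or Δ12/+ and the males labelled Δ12/Δ12. The striatum-like libraries are all 24 of the KO line and the females labelled Δ12/Δ12. The summed level of 8 markers of striatal projection neurons, among them Drd2, ran from 75.7 to 436.8 rescaled FPKM in the cortex-like and from 847.6 to 1748 in the striatum-like libraries. Xist and Ddx3y, transcripts of the inactive X and the Y chromosome, matched the sex on the label in 30 libraries and not in the other 30. Htt itself was between 15.4 and 18.1 FPKM in the 12 libraries labelled +/+ of the KO line and between 11.6 and 17.3 FPKM in the 12 labelled KO/+, of which 5 lay within the range of the +/+ libraries of the same labelled tissue. A whole-gene value of Htt does not check the Δ12 allele. Groups are therefore named by their labels throughout, and the expression-defined classes are used for description and, in Δ12/Δ12, as a covariate in an alternative fit.

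Levels are given as FPKM (fragments per kilobase of transcript, scaled to the mapped fragments of the library) rescaled so that the median ratio between libraries is 1. From the interval bounds in the files, the libraries hold about 12700000 to 27500000 fragments. One fragment of Pmch is then worth 0.0770 to 0.183 FPKM, and 20 of the 60 libraries hold 3 or fewer Pmch fragments. Hcrt is the most thinly covered member, with 3 or fewer fragments in 35 libraries, and Trh the most deeply covered, with at least 25.0 in every library. These limits cover counting error only. In bulk tissue, fewer cells of a type and less RNA per cell cannot be told apart.

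The peptides of the lateral hypothalamus were read in both classes. Pmch was at 1 rescaled FPKM or more in 37 of 60 libraries, 23 of the cortex-like and 14 of the striatum-like. Its level ran from 0 to 71.8 rescaled FPKM (median 7.23) in the cortex-like libraries and from 0 to 58.5 (median 0.490) in the striatum-like ones. The highest value was in the library labelled striatum, Δ12/Δ12, male 2. All 12 libraries labelled KO/+ were at 0.322 or lower, and the other 18 striatum-like libraries had a median of 8.90, so without KO/+ the classes have near equal medians. Hcrt was above 0 in 36 libraries and at 1 or more in 23, 14 cortex-like and 9 striatum-like. Its highest value, 24.3 rescaled FPKM, was in the same library as that of Pmch.

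The magnocellular peptides stood higher in the cortex-like class. Avp reached 187.9 rescaled FPKM (labelled cortex, +/+ of the Δ12 line, male 3), the highest level of any member, and had a median of 57.8 over the cortex-like libraries. Its median over the striatum-like libraries was 1.48 and its highest value there 53.3, and 17 cortex-like libraries lay above that value. Oxt ran from 0 to 33.2 rescaled FPKM (median 7.22) in the cortex-like and from 0 to 7.30 (median 0.363) in the striatum-like libraries. Without the libraries labelled KO/+, the striatum-like medians were 3.64 for Avp and 0.996 for Oxt. Avp exceeded Oxt in all 30 cortex-like libraries, by a median of 7.52-fold in the 24 where both reached 1, and in 26 of the 30 striatum-like ones. These class values are descriptions, since the classes were set from the same libraries.

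The remaining members separated the classes differently. Trh was read in every library, between 4.81 and 42.0 rescaled FPKM (median 17.7) in the cortex-like and between 1.11 and 4.07 (median 2.32) in the striatum-like class, with no overlap. Pomc was low in both, from 1.08 to 6.26 (median 2.58) in the cortex-like and from 0.181 to 1.16 (median 0.521) in the striatum-like libraries, and 29 of the 30 cortex-like values lay above the highest striatum-like one. Gal never reached 5 rescaled FPKM. It ran from 0 to 4.26 (median 1.5) in the cortex-like and from 0 to 1.84 (median 0.735) in the striatum-like class. Without the libraries labelled KO/+, the striatum-like median of Gal was 1.19, near that of the cortex-like class. Those of Trh and Pomc were then 3.31 and 0.521.

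**Figure D1:**
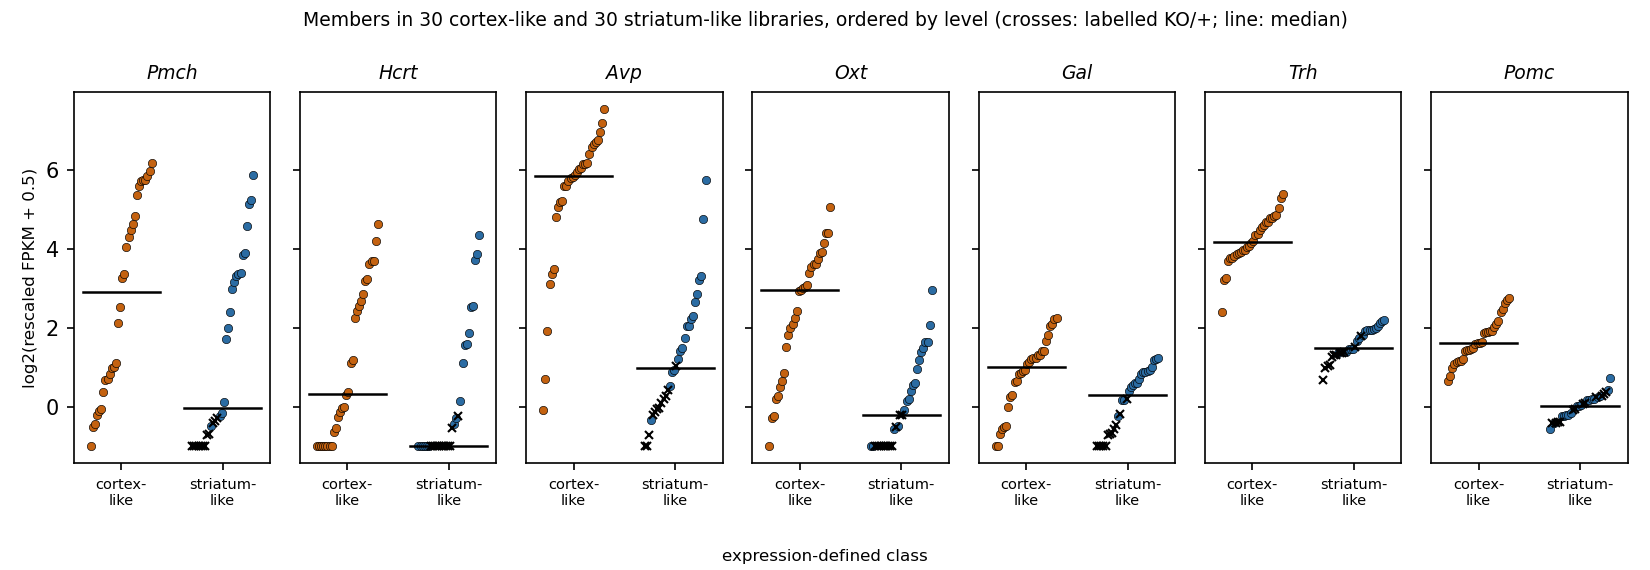
Level of each of the 7 genes as log2(rescaled FPKM + 0.5) (vertical axis) in the 30 cortex-like and 30 striatum-like libraries (horizontal axis, libraries ordered by level within a class). Crosses are the 12 libraries labelled KO/+ and lines are medians. Trh has no overlap between classes, and Pmch spans from 0 to above 50 rescaled FPKM in both.

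**Figure D2:**
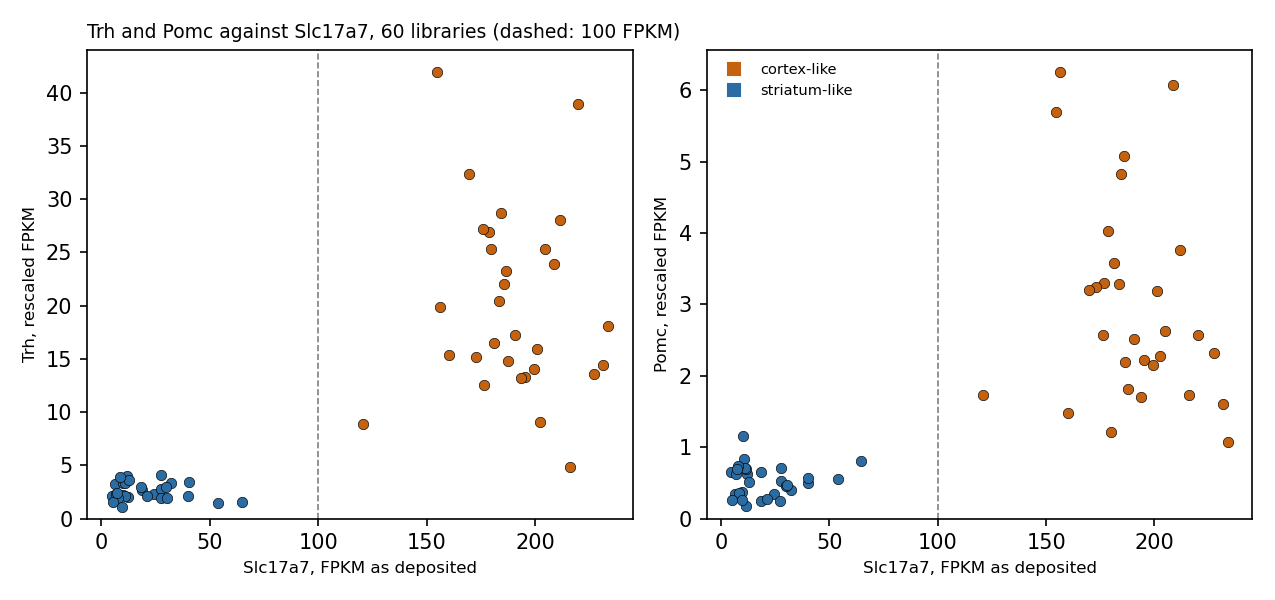
Trh and Pomc in rescaled FPKM (vertical axes) against Slc17a7 in FPKM as deposited (horizontal axis) in 60 libraries, coloured by class, with the threshold of 100 FPKM dashed. The lowest Trh value right of the line is 4.81 and the highest left of it is 4.07.

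Counting members at 1 rescaled FPKM or more, a library held between 1 and 7 of them, with a median of 5. All 7 were held by 13 libraries, and these were all cortex-like. Pomc reached 1 in all 30 cortex-like and in 1 of the 30 striatum-like libraries, so at most 1 striatum-like library could hold all 7. Within the cortex-like class the median was 6 members, and the library with the fewest held 2. Only 1 member was held by 11 libraries, each labelled KO/+, and the other library of that genotype held 2. The summed level of the 7 genes ran from 1.80 to 288.6 rescaled FPKM over the 60 libraries.

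Across the 10 labelled groups, the median Pmch level was lowest, at 0 rescaled FPKM, in the libraries labelled striatum, KO/+ (0 to 0.278), and next lowest, at 0.113, in those labelled cortex, KO/+ (0 to 0.322). The group labelled striatum, +/+ of the Δ12 line had a median of 0.800 (0.244 to 5.30), and that labelled cortex had 1.14 (0 to 27.9). Cortex, Δ12/+ followed at 1.59 (0.202 to 9.15) and cortex, +/+ of the KO line, at 3.14 (0.208 to 14.3). The 4 highest groups were striatum, +/+ of the KO line, at 22.5 (4.76 to 58.5), cortex, Δ12/Δ12 at 22.6 (0.393 to 57.0), striatum, Δ12/+ at 32.6 (16.0 to 52.1) and striatum, Δ12/Δ12 at 33.8 (0.587 to 71.8). In this order each group overlapped the next one. Of the 45 pairs of groups, 11 did not overlap in Pmch, and the other members had from 5 (Hcrt) to 20 (Trh) such pairs. The 11 include the pair on which Pmch was selected, striatum Δ12/+ and +/+, and pairs of unlike class. Such pairs were not counted over all genes, so the 11 cannot be read as particular to Pmch.

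**Figure D3:**
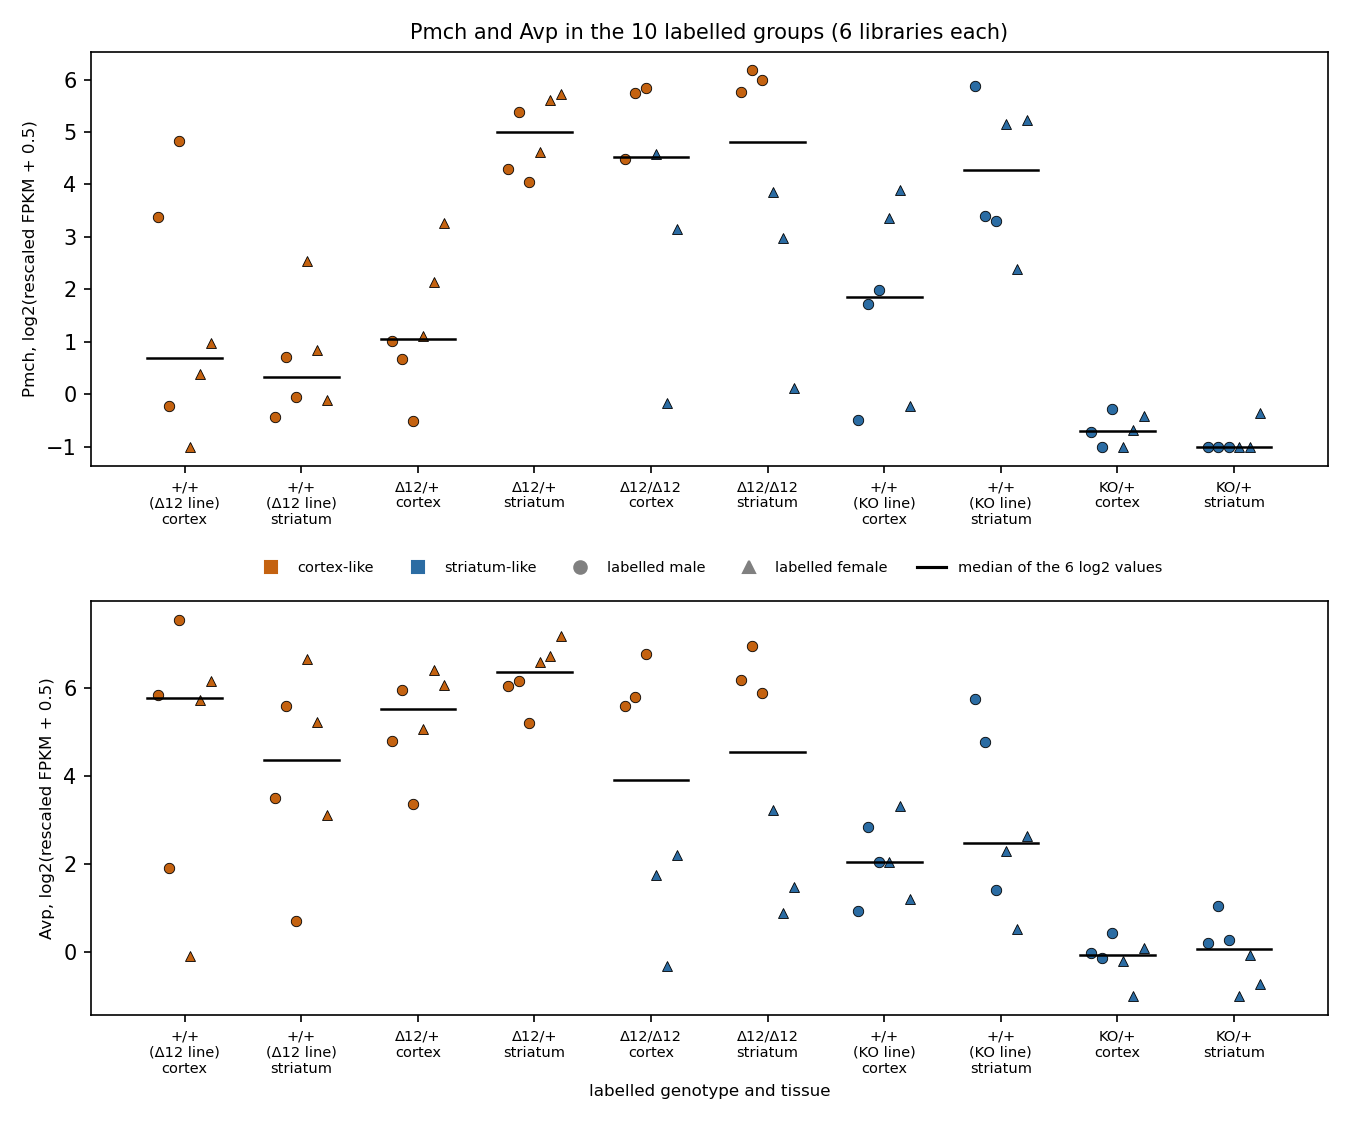
Pmch (upper panel) and Avp (lower panel) as log2(rescaled FPKM + 0.5) in the 10 labelled groups of 6 libraries, with orange for cortex-like and blue for striatum-like libraries, circles for labelled males, triangles for labelled females and a line at the median of the log2 values. The 12 libraries labelled KO/+ are at 0.322 rescaled FPKM or lower for Pmch and at 1.55 or lower for Avp, and the groups labelled Δ12/Δ12 hold cortex-like males and striatum-like females.

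Of the 7 members, 6 could be tested between the libraries labelled striatum, KO/+ and those of +/+ of the KO line, and all 6 were lower in KO/+. The 12 libraries are all striatum-like. Limma, with a term for the labelled sex and p-values adjusted over 15808 genes by the Benjamini-Hochberg method, called 6 of the 6 members tested as lower, where 3.78% of all genes tested were called lower. Pomc did not pass the filter on low values, a mean of 0.5 rescaled FPKM over the 12 libraries. A gene passes that filter also through the group where it is high, so the 6 are not all the members. Pmch, Hcrt, Oxt and Gal passed it only through the +/+ group, with KO/+ means of 0.0463, 0, 0.0599 and 0.101. Whether they could be tested thus depended on their level in +/+, and the count of 6 is not independent of that. Fold changes are differences of log2(rescaled FPKM + 0.5), which understate the change of low genes.

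Pmch was between 4.76 and 58.5 rescaled FPKM (median 22.5) in the libraries labelled striatum, +/+ of the KO line. It was at 0 in 5 of the libraries labelled striatum, KO/+ and at 0.278 in the other one, female 3, with no overlap between the groups. The log2 fold change was −5.12 (SE 0.53, n = 6 and 6, adjusted p = 0.00058 in limma). In KO/+ male 1, male 3 and female 2, Htt was at 16.7, 16.8 and 16.7 FPKM, within the range of the +/+ libraries. Pmch was at 0 in each of these. In male 2, female 1 and female 3, Htt was lower, at 11.6, 11.7 and 11.8 FPKM. The KO/+ label and a low Htt level are thus not the same here. Female 3 is the library whose title names the Δ12 line while its genotype label names the KO line. Without it the Pmch log2 fold change was −5.22 (adjusted p = 0.0019 in limma, and 0.00026 to 0.011 over all 19 alternatives) and 5 members were called. The share of all genes called without female 3 is not given here.

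Hcrt was between 0.238 and 20.1 rescaled FPKM (median 7.23) in the same +/+ libraries and is listed at 0 in all 6 libraries labelled KO/+, so no fold is given. Its adjusted p was 0.041 in limma, ran from 0.011 to 0.096 over 19 alternatives and was under 0.05 in 6 of them. The groups do not overlap for Hcrt, but 2 of the 6 +/+ libraries lay under 0.5 rescaled FPKM.

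Avp was between 0.947 and 53.3 rescaled FPKM (median 5.10) in the +/+ and between 0 and 1.55 (median 0.555) in the KO/+ libraries. The groups overlapped, since the highest KO/+ library, male 2, was above the lowest +/+ library. The log2 fold change was −2.95 (SE 0.65, adjusted p = 0.017 in limma). Oxt, its neighbour on chromosome 2, was between 0.215 and 7.30 (median 2.37) in the +/+ libraries and at 0 in 5 of the KO/+ libraries, with 0.360 in female 3. Its log2 fold change was −2.20 (SE 0.47, adjusted p = 0.016 in limma).

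Gal was between 0.354 and 1.84 rescaled FPKM (median 1.57) in the +/+ libraries and between 0 and 0.375 (median 0.0541) in the KO/+ libraries. All but 1 of the +/+ libraries were above 1, and the exception, female 3, was just below the highest KO/+ value. The log2 fold change was −1.63 (SE 0.25, adjusted p = 0.0041 in limma). Trh changed least among the members called. It was between 3.00 and 4.07 (median 3.67) in the +/+ and between 1.11 and 2.97 (median 1.97) in the KO/+ libraries, without overlap, and its log2 fold change was −0.77 (SE 0.15, adjusted p = 0.011 in limma). Pomc was at 0.181 to 1.16 (median 0.445) and at 0.245 to 0.690 (median 0.358).

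Other gene lists moved in the same comparison, and their part in the result was not tested. All 7 tested genes of the 8 on the thalamus list were called lower, with a list median log2 fold change of −1.46 against 0.02 over all genes. Slc17a6, the glutamate transporter of thalamic and hypothalamic excitatory neurons, fell by 2.54 (SE 0.24) on the log2 scale, from 5.60 to 13.4 rescaled FPKM in the +/+ libraries to 0.483 to 2.11 in the KO/+ libraries. Prkcd fell by 2.46 (SE 0.23). All 8 markers of striatal projection neurons were called higher, by 0.41 to 0.52 on the log2 scale, with Drd2 at 0.51 (SE 0.08). Of the 8 markers of cortical excitatory neurons, limma called 2 as higher, among them Fezf2 (0.48, SE 0.12), and 1, Rorb, as lower (−0.45, SE 0.08), with a list median of 0.59 and 7 of 8 at an unadjusted p under 0.05. The summed level of the thalamus list was 64.8 to 107.1 rescaled FPKM in the +/+ and 16.2 to 30.3 in the KO/+ libraries, and that of the striatal list 847.6 to 1238 and 1259 to 1597. Of the 7 choroid plexus genes, all were tested and 0 were called by limma, also at an unadjusted p under 0.05. Of the 8 anterior pituitary markers none passed the filter, and Prl, Gh and Fshb were at 0 in all 12 libraries.

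Among 18 further hypothalamic neuropeptide genes, 6 were tested in the same comparison. Tac2, the precursor of neurokinin B, fell by 1.72 (SE 0.26, adjusted p = 0.0036 in limma), while Npy rose by 0.39 (SE 0.08) and Pdyn by 0.42 (SE 0.12), and Cartpt, Crh and Nts were not called. Of the receptors of the members, 2 of 16 were tested. Mchr1, the receptor of melanin-concentrating hormone, was higher in KO/+ by 0.57 on the log2 scale (SE 0.12, adjusted p = 0.013 in limma), at 8.93 to 15.4 rescaled FPKM against 7.48 to 9.61. Galr1 was not called. Of 13 peptide processing genes all were tested and 1, the convertase Pcsk2, was called, higher by 0.27 (SE 0.06). Nkx2-1 and Nkx2-2 were the 2 of 14 hypothalamic transcription factors that could be tested, and neither was called.

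The same contrast gave smaller fold changes in the libraries labelled cortex, which for the KO line are striatum-like as well. Pmch was between 0.208 and 14.3 rescaled FPKM (median 3.14) in +/+ and between 0 and 0.322 (median 0.113) in KO/+, with 2 of the +/+ libraries within or near the KO/+ range. The log2 fold change of −2.39 (SE 0.66) did not pass the threshold (adjusted p = 0.16 in limma). Gal was the only member called, of 6 tested, where 0.107% of 15820 genes were called lower. Pmch, Avp, Oxt and Gal passed the filter only through +/+, with KO/+ means of 0.133, 0.446, 0.0953 and 0.197. Whether they could be tested thus depended on their level in +/+. At an unadjusted p under 0.05 stood 5 of the 6 members and 2236 of all genes. Gal was between 0.968 and 1.39 rescaled FPKM (median 1.06) in +/+. In KO/+ it was between 0 and 0.649 (median 0.151), without overlap. Its log2 fold change was −1.29 (SE 0.19, adjusted p = 0.027 in limma). Its adjusted p ran from 0.0073 to 0.24 over 19 alternatives and was under 0.05 in 8 of them.

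Avp, at 1.41 to 9.51 rescaled FPKM in the cortical +/+ and 0 to 0.850 in the KO/+ libraries, did not overlap either, and its log2 fold change of −2.21 (SE 0.39) had an adjusted p of 0.066 in limma. Oxt was at 0 to 2.30 and 0 to 0.366, and Trh at 2.24 to 3.64 and 1.49 to 2.10. Hcrt did not pass the filter and was at 1 or more in 2 of the +/+ and in none of the KO/+ libraries, where 4 of 6 were at 0. Pomc, with a log2 fold change of 0.05 (SE 0.15), was at 0.344 to 0.835 in +/+ and at 0.270 to 0.801 in KO/+. Of the 18 further peptide genes, Tac2 alone was called (−1.92, SE 0.17, adjusted p = 0.0018 in limma). On the thalamus list 0 of 7 tested genes were called by limma, and 3 were lower at an unadjusted p under 0.05, as were 6 of 8 genes of the list of globus pallidus, basal forebrain and septum and 2 of 2 tested of the midbrain dopamine list, of which 0 were called. Of the 7 choroid plexus genes 0 were called and 6 were higher at an unadjusted p under 0.05, and the summed level of that list was 46.5 to 820.6 rescaled FPKM in +/+ and 186.7 to 2124 in KO/+.

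Whether the KO/+ difference itself differed between the labelled tissues was tested with an interaction term over the 24 libraries, with the labelled mouse as a block. The Pmch difference was larger in the libraries labelled striatum by 2.73 on the log2 scale (coded as striatum minus cortex, −2.73, SE 1.06), with an unadjusted p of 0.023 and an adjusted p of 0.36 in limma. By limma, 0 of 7 members and 0 of 15917 genes (0%) were called, and 2 members and 1921 genes had an unadjusted p under 0.05.

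**Figure D4:**
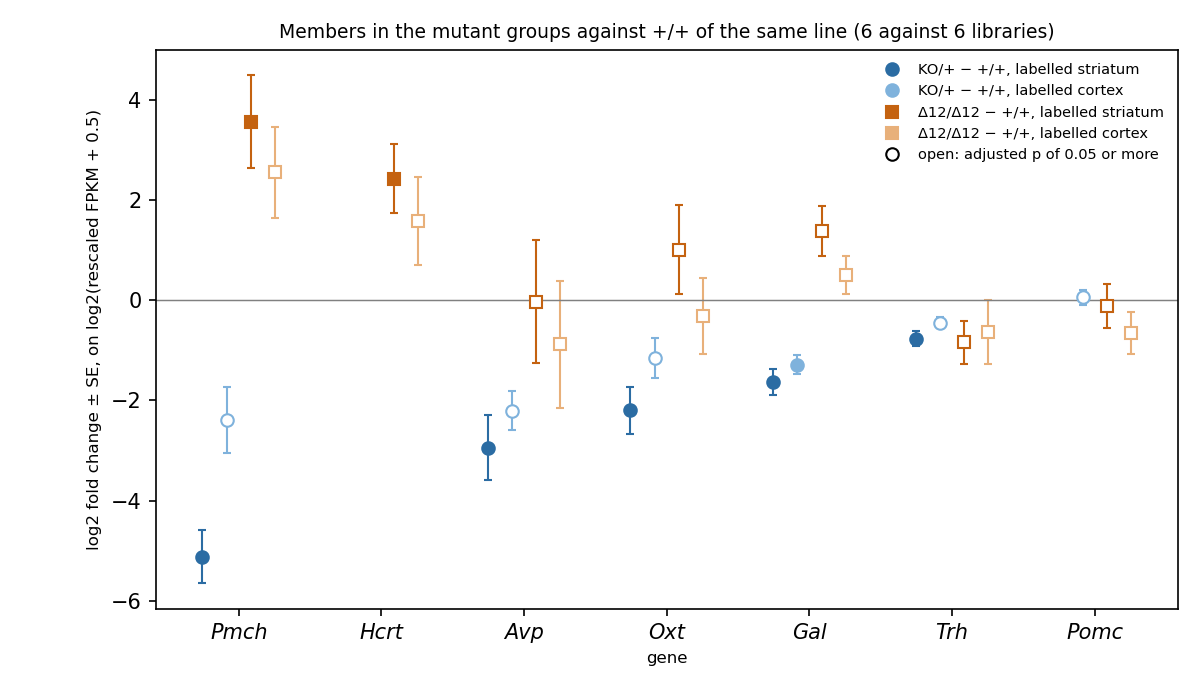
Log2 fold change with its SE (vertical axis) of each gene (horizontal axis) in 4 comparisons of 6 against 6 libraries, KO/+ and Δ12/Δ12 against +/+ of the same line in the libraries labelled striatum and cortex. Filled symbols have a limma adjusted p under 0.05, and genes that did not pass the filter, and Hcrt in striatal KO/+ (at 0 in all 6 KO/+ libraries), are left out. The 5 genes plotted for striatal KO/+ are filled and lie between −5.12 (Pmch) and −0.77 (Trh).

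The Δ12/+ animals of the Δ12 line, cortex-like in both labelled tissues, gave the contrast on which Pmch was selected, so its values there are described without a test. Among those labelled striatum, Pmch was between 16.0 and 52.1 rescaled FPKM (median 32.6) in Δ12/+ and between 0.244 and 5.30 (median 0.800) in +/+, without overlap. Pmch was the 1 gene past the threshold among 15077 (0.00663%), which is how it was selected. Hcrt was between 1.78 and 12.4 (median 6.09) in Δ12/+ and between 0 and 0.793 (median 0.275) in +/+, again without overlap.

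The other members overlapped between the groups. Avp was at 36.2 to 145.4 rescaled FPKM (median 83.1) in Δ12/+ and at 1.12 to 101.2 (median 23.9) in +/+. Oxt was at 7.58 to 14.5 (median 10.6) and at 0.320 to 7.94 (median 1.11), Gal at 0.683 to 2.66 and at 0 to 3.78, Trh at 8.86 to 42.0 and at 12.5 to 18.1, and Pomc at 1.73 to 5.70 and at 1.08 to 3.30. The medians of all 7 were higher in Δ12/+. Choroid plexus genes had a summed level of 5.34 to 383.0 rescaled FPKM in Δ12/+ (median 53.4) and 3.52 to 64.0 (median 9.75) in +/+, and the striatal list reached 436.8 in Δ12/+ and 142.6 in +/+. Their part in the values of the members was not tested.

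The libraries labelled cortex did not repeat that difference. By limma, 0 of 7 members were called in Δ12/+ against +/+, and 0 had an unadjusted p under 0.05, where 0.0530% of 15095 genes were called in either direction. Pmch was at 0.202 to 9.15 rescaled FPKM (median 1.59) in Δ12/+ and at 0 to 27.9 (median 1.14) in +/+, with a log2 fold change of −0.11 (SE 0.99, adjusted p = 0.98 in limma). Hcrt was below 0.5 in every Δ12/+ library, while 2 of the +/+ libraries were above 1. Of the +/+ libraries, female 1 and male 1 have the fewest entries above 0 (14925 in female 1, against a median of 21166.5 over the 60 libraries), and without these 2 the Pmch log2 fold change was −0.21 (SE 1.03).

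Δ12/Δ12 mixes the classes, since the males are cortex-like and the females striatum-like, while all +/+ libraries of the line are cortex-like. With the label striatum, Pmch was at 53.6, 71.8 and 62.9 rescaled FPKM in the males and at 14.0, 7.43 and 0.587 in the females, against 0.244 to 5.30 in +/+. All 3 males and 2 of 3 females lay above every +/+ library. Limma called Pmch (log2 fold change 3.56, SE 0.92, adjusted p = 0.032) and Hcrt (2.43, SE 0.68, adjusted p = 0.035) as higher, 2 of 7 members, where 14.9% of 15467 genes were called higher. Hcrt passed the filter only through Δ12/Δ12, with a +/+ mean of 0.345 rescaled FPKM. Whether it could be tested thus depended on its level in Δ12/Δ12, and the count of 2 is not independent of that. With the expression-defined class as a further covariate the Pmch value was 5.90 (SE 0.89, adjusted p = 0.045) and Hcrt was not called (adjusted p = 0.068 in limma). In that fit the 3 Δ12/Δ12 females are the only striatum-like libraries and the class term takes them up. The values thus rest on the 3 Δ12/Δ12 males against +/+. Without the sex covariate neither Pmch nor Hcrt was called (adjusted p = 0.13 for both in limma), nor without the filter (0.052 and 0.057). The striatal +/+ libraries are those of the contrast on which Pmch was selected, where they were the lower group, so this call is not independent of that selection. Over 20 alternatives the adjusted p of Pmch ran from 0.030 to 0.15 and that of Hcrt from 0.035 to 0.15.

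Hcrt in those libraries was at 8.60, 24.3 and 11.7 rescaled FPKM in the males and at 3.16, 0.6001 and 0 in the females, against 0 to 0.793 in +/+. Every male was above every female and every +/+ library. Avp was at 58.8 to 124.1 in the males and at 1.36 to 8.82 in the females, and its log2 fold change over both sexes was −0.03 (SE 1.23). Trh was at 16.4 to 27.2 in the males and at 2.05 to 3.34 in the females. Leaving out any 1 of the 3 females of either group ended both calls, with an adjusted p of up to 0.082 for Pmch and 0.087 for Hcrt in limma.

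With the label cortex, Pmch was at 21.9, 53.2 and 57.0 rescaled FPKM in the Δ12/Δ12 males and at 23.3, 0.393 and 8.40 in the females, against 0 to 27.9 in +/+. By limma, 0 of 7 members were called and 1, Pmch, had an unadjusted p under 0.05, as had 6003 of 15696 genes, of which 0.790% were called in either direction. The Pmch log2 fold change was 2.55 (SE 0.91, adjusted p = 0.079). The Δ12/+ and Δ12/Δ12 comparisons of a labelled tissue share the same +/+ libraries.

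Comparing the +/+ animals of the 2 lines sets striatum-like against cortex-like libraries, so line and class cannot be told apart. For the label striatum, 41.9% of 15712 genes were called higher and 37.4% lower in the KO line by limma. Of the members, Pmch (3.64, SE 0.65, adjusted p = 0.00025) and Hcrt (2.41, SE 0.87, adjusted p = 0.023) were higher in the KO line, and Trh (−1.88, SE 0.09, adjusted p = 4.0e-09 in limma) and Pomc (−1.24, SE 0.25, adjusted p = 0.00072) were lower. The Δ12-line libraries of this comparison are again the ones low in the contrast that selected Pmch, so its value reuses them. Hcrt passed the filter only through the KO line, with a mean of 0.345 rescaled FPKM in the Δ12 line. Whether Hcrt could be tested thus depended on its level in the KO line. For the label cortex, Trh (−2.35, SE 0.31, adjusted p = 3.8e-05) and Pomc (−1.53, SE 0.29, adjusted p = 0.00058) were lower, where 31.7% of 15800 genes were. Without the Δ12-line +/+ libraries female 1 and male 1, Avp and Oxt were called lower as well, 4 members in all. The share of all genes called in that refit is not given here. With all 12 libraries labelled cortex, Pmch had a log2 fold change of 0.32 (SE 1.09). The striatal call of Hcrt was lost without +/+ of the KO line male 1, female 1 or female 3 (adjusted p of up to 0.056 in limma). These +/+ libraries are also the controls of the comparisons with the mutant groups.

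Between the libraries labelled striatum and those labelled cortex, over all groups and with the labelled mouse as a block, limma called 0 of 7 members and 0 of 16076 genes (0%). Both libraries of a labelled mouse were of the same expression-defined class, and the block takes up the class. The comparison therefore could not show a difference between cortex-like and striatum-like libraries, and nothing about the tissues is concluded from it. Of the members, Pmch and Hcrt had an unadjusted p under 0.05, with log2 fold changes of 1.08 (SE 0.47) and 0.90 (SE 0.40) and an adjusted p of 0.89, and 886 of all genes had an unadjusted p under 0.05. The Pmch value includes the striatal Δ12/+ and +/+ libraries on which it was selected. Avp was at 0.41 (SE 0.43), and the other 4 lay between −0.07 and 0.47.

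Among themselves, the members varied together within a class. The following correlations are descriptions over 30 libraries that share the labelled groups and, in pairs, the labelled mouse. In the cortex-like class, Pearson's r on log2(rescaled FPKM + 0.5) was 0.92 between Pmch and Hcrt and 0.91 without the 2 libraries highest in Pmch, and 9 of the 10 libraries highest in Pmch were among the 10 highest in Hcrt. Avp and Oxt had r = 0.86 there, and 8 of the 10 highest were shared. The r of Pomc with the others lay between 0.34 (Gal) and 0.59 (Pmch), and the pairs without Pomc between 0.51 (Gal and Trh) and 0.92.

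In the striatum-like class, 12 of the 30 libraries are those labelled KO/+, so the difference between the groups enters each r. Pmch and Hcrt had r = 0.89, Avp and Oxt 0.83, and Pmch and Trh 0.84, with the 10 libraries highest in Pmch and those highest in Trh being the same. The r of Pomc with the others lay between −0.18 (Hcrt) and 0.21 (Gal). Pmch exceeded Hcrt by a median of 3.905-fold in the 9 striatum-like and 4.77-fold in the 14 cortex-like libraries where both reached 1. The ratio of Avp to Pmch shifted between classes, with a median of 3.94 in 23 cortex-like and 0.493 in 13 striatum-like libraries.

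**Figure D5:**
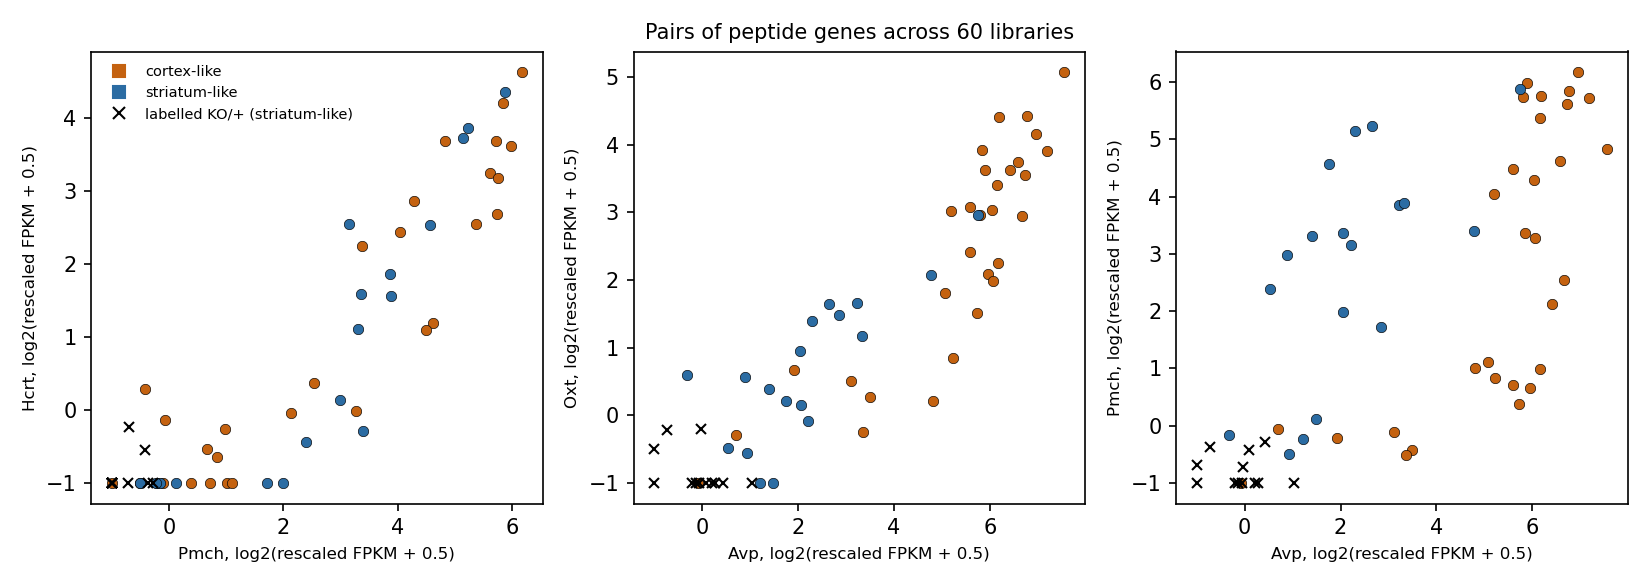
Hcrt against Pmch, Oxt against Avp and Pmch against Avp, each as log2(rescaled FPKM + 0.5), in 60 libraries coloured by class, with crosses for the libraries labelled KO/+. Pmch and Hcrt follow 1 band in both classes, while Avp lies further right in the cortex-like libraries at the same Pmch level.

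The genes whose pattern was most like that of a member were sought among 15232 with a mean of at least 0.5 rescaled FPKM over the cortex-like libraries. For Pmch, Hcrt, Avp, Oxt and Gal, the 5 closest genes included at least 1 other member. After Hcrt, Pmch was closest to Oxt (r = 0.85), Magel2 (0.83), Ngb (0.81) and Ppp1r17 (0.80). Avp was closest to Oxt, Nts (0.81), Magel2 (0.79), Ndn (0.77) and Gm43191 (0.76). Trh was closest to Tmem35 (0.83) and Pomc to Lamtor2 (0.70), and no member was among the 5 genes closest to either. Without the 2 libraries highest in the member, the values for these named pairs stayed between 0.65 and 0.91.

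Over the striatum-like libraries, with 15959 genes, Pmch was closest to Nacc2 (r = 0.93), Ret (0.92), Sparc (0.92), Gdf11 (0.91) and Klhdc8a (0.91), and Hcrt to Myoc (0.90) and Pmch. Gal was closest to Dgkk (0.88), with Tac2 also among its 5 closest genes (0.82), and Avp to Calb2 (0.86), with Oxt among its 5. Pmch and the genes Nacc2 and Ret were among the 5 closest to Trh, at 0.84 each.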

How the data were processed

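The authors sequenced rRNA-depleted, directional libraries on a NovaSeq6000 and deposited, per library, FPKM values with interval bounds for each gene. The submitters' processing notes name bcl2fastq 2.20, Trimmomatic 0.30, TopHat2 2.0.14, SAMtools 1.3, HTSeq 0.6.1p1 and GRCm38. The program that made the FPKM is not given in the sources used here, nor is its treatment of reads shared by paralogs.

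The FPKM were rescaled by the median ratio over 13235 genes (factors 0.761 to 1.38), with 23 entries without an OK status left out. Limma 3.58.1 in R 4.3.3 was run with a trend on log2(rescaled FPKM + 0.5) over genes with a mean of at least 0.5 in each comparison, with Benjamini-Hochberg adjustment and a threshold of 0.05, and was tested on simulated data. The named genes are the members, at most 4 genes of each list and the 5 most correlated genes per member. Members and lists were chosen with earlier results of these data known. Fragments were estimated from the interval bounds. The p-values measure the spread between libraries as labelled. Alternatives were other scalings, pseudocounts, filters and covariates, a replicate block and leaving out each library.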

Additional observations from a re-analysis of the deposited data

Results flagged for a closer look

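In 70 sets of 6 libraries (7 genes in 10 labelled groups), 12 values stood apart from the other 5 by Dixon's ratio, which chance alone gives in about 1 set of 20. The library labelled cortex, +/+ of the Δ12 line, male 3 was high for Pmch (27.9 rescaled FPKM, nearest 9.85) and Hcrt (12.4, nearest 4.25). Labelled cortex, Δ12/Δ12, male 3 was high for Hcrt (18.1, nearest 5.95) and Oxt (20.9, nearest 7.26), and labelled cortex, Δ12/+, female 2 was high for Oxt (11.8, nearest 3.76). In the libraries labelled striatum, +/+ of the Δ12 line, female 1 was high for Pmch (5.30, nearest 1.29) and male 2 for Gal (3.78, nearest 1.05).

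In the libraries labelled striatum, KO/+, female 3 was the highest for Pmch (0.278, all others at 0), Oxt (0.360, all others at 0) and Gal (0.375, nearest 0.122), each a value of few fragments, and it is the library whose title and genotype label name different lines. In the libraries labelled striatum, +/+ of the KO line, female 3 was low for Gal (0.354, nearest 1.35). In those labelled cortex, KO/+, female 1 was high for Gal (0.649, nearest 0.230).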

How the results depend on the processing

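Over all results, 261 of 293 values under another setting (leaving out 1 library aside) kept their direction and their side of the threshold or stayed within the spread or 1.5 times the count. All 56 medians by class were among them. Slc17a7 thresholds of 80 and 65 FPKM chose the same 30 cortex-like libraries, so the medians under these thresholds could not differ. The other medians were set against the SD of the class, a wide limit. For Pmch in the cortex-like libraries that SD was 23.5, with a median of 7.23. The medians are therefore little evidence of stability.

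The count of members called in the libraries labelled striatum, Δ12/+ against +/+ went from 1 to 2 without the sex covariate. Pmch was selected on this contrast, so its counts here and below are no test of how stable the call is. For Δ12/Δ12 in the libraries labelled striatum it went from 2 to 0 with no filter and to 0 without the sex covariate, and to 1 with the expression-defined class as a covariate. For KO/+ in the libraries labelled cortex it went from 1 to 3 on the FPKM as deposited, to 0 with a pseudocount of 0.1 and to 2 without the sex covariate. For the lines in the libraries labelled cortex it went from 2 to 4 without the 2 +/+ libraries with the fewest entries above 0, an alternative added after seeing the data. The Pmch log2 fold change of cortical Δ12/+, −0.11, was 0.17 with a pseudocount of 0.1, far from the threshold under both. For the counts here and below, the share of all genes called under the same setting is not given. The causes were not tested.

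With a replicate block of labelled sex and number the count went to 0 for striatal Δ12/+, to 0 for striatal Δ12/Δ12 and to 0 for cortical KO/+, while for striatal KO/+ it stayed within 1.5 times with Hcrt lost (adjusted p = 0.059 in limma). Numbers are shared by different mice, and the correlations of same-numbered libraries lay between −0.22 and 0.16, so they share only a number.

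Leaving out each library in turn (96 fits), the counts ranged from 1 to 2 (striatal Δ12/+), 0 to 3 (striatal Δ12/Δ12), 5 to 6 (striatal KO/+), 3 to 5 (striatal lines), 0 to 1 (cortical KO/+) and 2 to 4 (cortical lines), and were 0 throughout for cortical Δ12/+ and Δ12/Δ12. The Pmch log2 fold change ranged from −5.54 to −4.74 for striatal KO/+, from −0.60 to 0.61 for cortical Δ12/+ and from −0.24 to 1.01 for cortical lines. The cortical line count was 4 without +/+ of the Δ12 line male 2 or female 1, and the striatal Δ12/+ count, fixed in part by the selection, 2 without Δ12/+ female 1. In striatal KO/+, Hcrt was called only without +/+ male 2, male 3 or female 2, and in cortical KO/+, Gal only without KO/+ male 3, female 1 or female 3, among the 12 fits of each. By the fragments implied by the FPKM, 3 or fewer stood behind the value in 35 libraries for Hcrt, 20 each for Pmch and Oxt and 17 for Gal.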

Other observations

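The 3 receptor genes given here were chosen after their values were seen. Mchr1 was between 0.593 and 3.28 rescaled FPKM (median 1.52) in the cortex-like and between 7.48 and 15.4 (median 9.66) in the striatum-like libraries, while Trhr, the receptor of thyrotropin-releasing hormone, was between 0.409 and 2.95 (median 2.00) and between 0.0501 and 0.806 (median 0.303). Oxtr stayed below 1 in all 60 libraries. These are descriptions of classes set from the same libraries.

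Nts (neurotensin) was between 2.12 and 19.2 rescaled FPKM (median 12.3) in the cortex-like and between 1.35 and 5.86 (median 3.03) in the striatum-like libraries. Agrp, a peptide of arcuate neurons, was listed at 0 in 25 of the 30 striatum-like libraries and in 3 of the cortex-like ones, and reached 2.77. Npy, which cortical and striatal interneurons also make, was above 19 in every library.

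Ttr, a carrier protein of the choroid plexus, ran from 1.34 to 364.4 rescaled FPKM in the cortex-like and from 29.6 to 2025 in the striatum-like libraries. Prl, a hormone of the anterior pituitary, was listed at 0 in 21 cortex-like and 29 striatum-like libraries and reached 2.75.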
